A study of Mus musculus with 14 samples.

Results

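The genes described here are 34 targets and components of the NF-kappaB pathway, cytokines and chemokines, followed in pancreatic islets across genotype and time on a high-fat diet. They were taken as the probe sets whose platform annotation gives exactly 1 gene symbol in that list, with the brightest probe set per gene over the 14 arrays. Of the 34, 33 were measured, each by 1 probe set, among 18820 genes in all. Nfkb1 was not analysed here. The rule uses no measured difference, but the list was chosen with earlier results of these arrays known.

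Islets came from wild-type C57BL/6 mice (WT) and from Tlr2/Tlr4 double knockout mice (DKO) on the same background, which lack Toll-like receptors 2 and 4. Every mouse ate a 60% fat diet from 6 weeks of age. At 5 weeks of diet there were 4 WT mice and 2 DKO mice, and at 7 months 4 mice of each genotype. No group on another diet was analysed here, each array holds islets of 1 mouse, no promoter or Cre line is named for the knockout, and the sources used here do not say whether the genotypes were littermates. Mice at 7 months were also older, so that age and time on the diet cannot be told apart. The study asked what the 2 receptors do in the growth of beta cells on such a diet.

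Toll-like receptors 2 and 4 sense bacterial lipopeptides and lipopolysaccharide, and through the adaptor MyD88 they activate the IkappaB kinases. These mark the IkappaB inhibitors for destruction and free NF-kappaB dimers such as p65 with p50 to enter the nucleus. The dimers switch on cytokine, chemokine and adhesion genes and, with them, the genes of their own inhibitors, which makes the latter a common readout of the pathway. In islets these genes can be active in endocrine cells as well as in resident macrophages, endothelial cells and infiltrating lymphocytes, and an array of whole islets does not separate fewer cells of a type from less RNA per cell.

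The promoters shown next are those of the chemokine genes Cxcl2 and Cxcl1 and of 3 feedback inhibitors, Tnip1, Nfkbia and Tnfaip3. They are shown because each holds a match to the NF-kappaB consensus, and they were chosen with their genotype differences known. Among these genes Cxcl2 alone passed the test between genotypes described below, at the later time only. Whether the genotype difference differed from gene to gene was not tested. Each run is the 130 bases before the RefSeq transcription start, 5′ to 3′ on the strand of the gene (build GRCm38.p6), and capitals mark matches to the 10-base kappaB consensus on either strand.
Cxcl2: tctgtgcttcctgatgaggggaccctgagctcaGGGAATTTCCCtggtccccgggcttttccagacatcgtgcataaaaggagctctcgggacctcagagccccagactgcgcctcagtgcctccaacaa
Cxcl1: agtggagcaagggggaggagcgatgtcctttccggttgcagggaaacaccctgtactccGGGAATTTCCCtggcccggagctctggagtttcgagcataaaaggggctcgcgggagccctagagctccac
Tnip1: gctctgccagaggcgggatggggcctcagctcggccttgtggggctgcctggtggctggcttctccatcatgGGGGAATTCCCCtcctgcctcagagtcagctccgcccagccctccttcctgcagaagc
Nfkbia: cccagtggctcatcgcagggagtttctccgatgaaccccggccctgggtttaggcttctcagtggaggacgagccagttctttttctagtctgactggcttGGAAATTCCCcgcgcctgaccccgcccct
Tnfaip3: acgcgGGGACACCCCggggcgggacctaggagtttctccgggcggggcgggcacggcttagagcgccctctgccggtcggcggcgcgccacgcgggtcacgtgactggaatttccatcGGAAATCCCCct

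These windows lie at chr5:90903769-90903898 (plus strand) for Cxcl2, chr5:90891115-90891244 (plus) for Cxcl1, chr11:54962941-54963070 (minus) for Tnip1, chr12:55492648-55492777 (minus) for Nfkbia and chr10:19015411-19015540 (minus) for Tnfaip3, each immediately upstream of the first exon of the transcript used. In Cxcl2 and Cxcl1 the matches on the opposite strands overlap and give the same 11 letters. Promoters of 300 bases were listed for 24 of the members, and 12 of these held at least 1 match: Bcl3, Ccl20, Cxcl1, Cxcl2, Il1r1, Il6, Nfkb2, Nfkbia, Nfkbie, Tnfaip2, Tnfaip3 and Tnip1. A match was present in at least 1 promoter of 9.55% of the 27025 genes in the table, and in 8.46% of its 32851 promoters of that length. The members were listed as NF-kappaB targets, so this share describes the list, and a match is not evidence of binding in islets.

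On the log2 RMA scale each array had a median of 3.89 to 3.98, and pairs of arrays of the same group correlated at 0.986 to 0.995. Tlr2 was 4.77 and 4.82 in DKO against 6.22 to 6.62 in WT islets at 5 weeks, and 5.18 to 5.41 against 6.24 to 6.53 at 7 months. Its signal was lower in each DKO array than in any WT array of the same time (limma adjusted p = 9.71e-06 and 1.61e-05). Tlr4 did not pass at either time (0.35 ± 0.20, SE, and 0.31 ± 0.16). The position of its probe set relative to the deletion was unknown here, and its values therefore do not check the labels. Ins2, the insulin gene, lay between 11.76 and 11.99 in all arrays and Iapp, the islet amyloid gene, between 12.62 and 12.92. DKO replicate 4 at 7 months stood apart in lymphocyte markers, described below, and results of members that rest on it are given without it too.

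Of the 33 members, 16 had a mean over the 14 arrays above 3.95, the mean of the array medians, and 17 lay below it. Against 4.78, the median of the genes tested, 7 lay above. The signal of a probe set also depends on its probes, so these positions rank the genes only roughly. In the plot of levels by gene, Il1r1, the signalling receptor for interleukin-1, stood far above the rest at 10.79 to 11.06. Its group means differed by little, at 10.93 ± 0.10 (SD, n = 4) in WT and 10.95 (n = 2) in DKO at 5 weeks and 10.98 ± 0.08 against 10.88 ± 0.10 (n = 4 each) at 7 months.

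**Figure D1:**
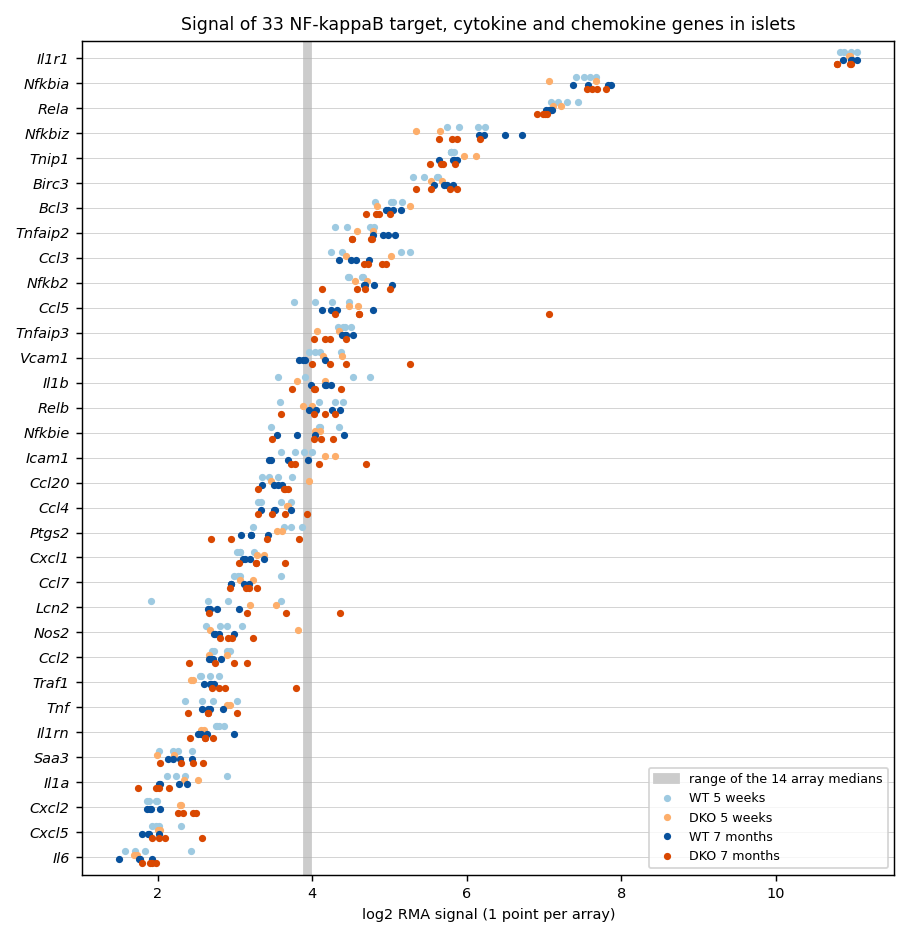
Log2 RMA signal (horizontal axis) of the 33 measured members, 1 point per array, coloured by group and sorted by mean, with the range of the 14 array medians as a grey band. Il1r1, Nfkbia and Rela are the brightest, while Il6, Cxcl5, Cxcl2 and Il1a lie far left of the band in each group.

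All 6 inhibitors and feedback regulators lay above the mean array median, though Nfkbie, at 3.99, lay only just above it. Nfkbia, which encodes IkappaB-alpha, the inhibitor that holds NF-kappaB in the cytoplasm, had a mean of 7.59, and Nfkbiz, encoding the nuclear coactivator IkappaB-zeta, 6.01. All 3 measured subunit genes lay above as well, led by Rela, which encodes p65, at 7.11, with Nfkb2 at 4.65 and Relb, of the non-canonical pathway, at 4.07. Nfkbie, Tnfaip3 (4.33), Nfkb2 and Relb lay below 4.78, the median of the genes tested. The target Birc3, an apoptosis inhibitor and ubiquitin ligase, had 5.61.

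The secreted products were dim. All 3 CXC chemokine genes lay below the mean array median (means 2.03 to 3.22), as did 4 of 6 CC chemokine genes (range of the role 2.78 to 4.71), Ccl3 at 4.71 and Ccl5 at 4.55 being the exceptions. Among the cytokines, Il1b, at 4.10, lay slightly above it, and Tnf at 2.71, Il1a at 2.22 and Il6 at 1.82 lay below the median of every array. Il1rn, which encodes the interleukin-1 receptor antagonist, was at 2.67. Ptgs2 and Nos2, the inducible cyclooxygenase and nitric oxide synthase genes, were at 3.39 and 2.93, and the acute phase genes Saa3 and Lcn2 at 2.25 and 3.05. For genes this far below the median, array signals can compress differences, and the sizes of change are not exact.

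Between genotypes, most members lay close together. At 5 weeks 0 of the 33 members passed the test (limma adjusted p under 0.05), where 0.994% of all genes did, and 3 had an unadjusted p under 0.05 (9.09%, against 12.1% of all genes). At 7 months 1 passed, Cxcl2, higher in DKO, where 4.71% of all genes passed in either direction and 2.44% were higher in DKO, and 6 had an unadjusted p under 0.05 (18.2%, against 18.4% of all genes). The median difference over the members was 0.03 at 5 weeks and 0.02 at 7 months, beside 0.01 for all genes at each time, with 18 members higher and 15 lower in DKO in both comparisons. The share that passed higher in DKO at 7 months (3.03%, against 2.44% of all genes) is 1 gene, which does not tell the members from all genes. The share in either direction at 7 months rests on the same gene, and the share at an unadjusted p was close to that of all genes.

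Of the 16 members above the mean array median, 15 had a 95% interval of the difference within 1 log2 unit, a 2-fold change in signal, at each time, and Ccl5 was the exception. For the 17 members below it a narrow interval does not bound the change in RNA, since differences in dim signals can be compressed. The same limit applies to members just above it, such as Nfkbie (3.99), Relb (4.07), Il1b (4.10) and Vcam1 (4.19). For Nfkbia the interval ran from -0.52 to 0.18 at 5 weeks and from -0.28 to 0.29 at 7 months. For Rela it ran from -0.30 to 0.13 and from -0.26 to 0.09, and for Il1r1 from -0.19 to 0.23 and from -0.26 to 0.08. The plot of genotype differences shows how few intervals leave 0.

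**Figure D2:**
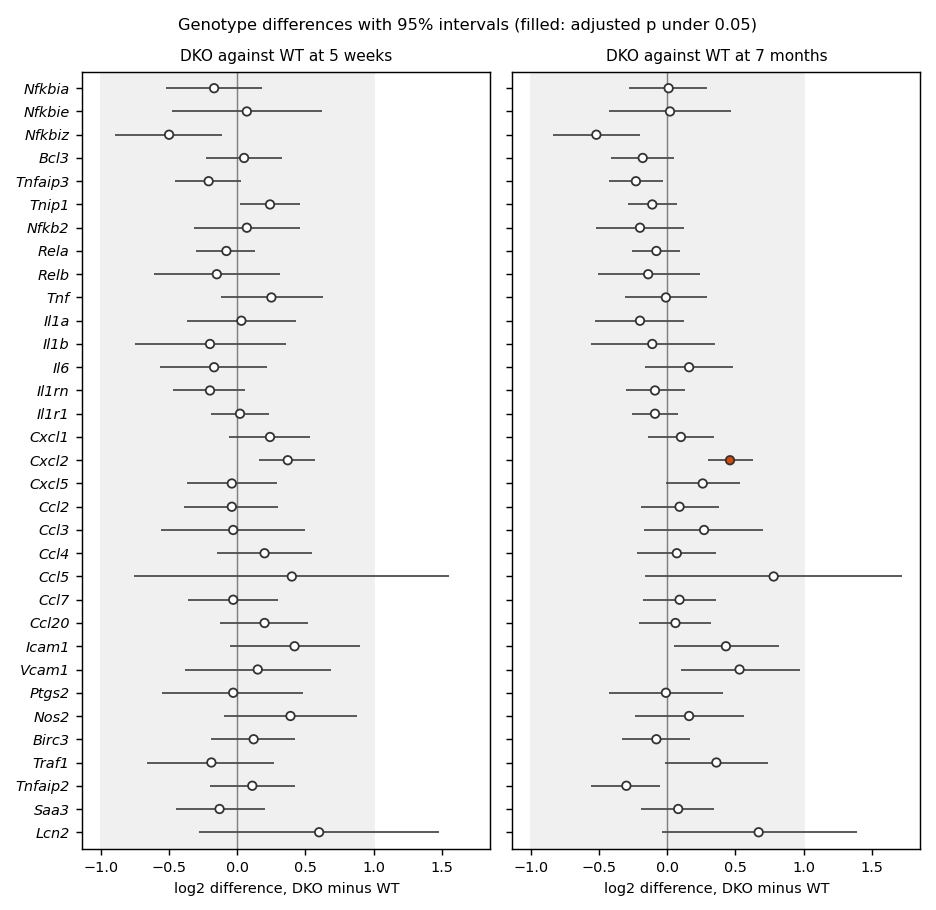
Log2 difference of DKO minus WT (horizontal axis) with its 95% interval from limma for each member, by role, at 5 weeks (left) and 7 months (right). The grey band spans a 2-fold change either way, and the filled point, Cxcl2 at 7 months, is the member with an adjusted p under 0.05.

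Cxcl2, a neutrophil-attracting chemokine gene, was higher in DKO islets. Its log2 signal was 1.98, 1.88, 1.86 and 1.99 in WT and 2.30 and 2.29 in DKO at 5 weeks. At 7 months it was 2.03, 1.90, 1.86 and 1.91 in WT and 2.46, 2.26, 2.50 and 2.33 in DKO. Each DKO array lay above each WT array at both times, and the arrays at 5 weeks share no sample with those at 7 months. The rise at 7 months was 0.46 ± 0.08 (SE; 1.38-fold, limma adjusted p = 0.00335, n = 4 and 4), and it passed in all 22 alternatives in which it was tested (adjusted p up to 0.0218). The difference at 5 weeks, 0.37 ± 0.10, did not pass (adjusted p = 0.0922, n = 2 and 4). All 14 values lay below the median of every array, at percentile 13 of the probe sets by mean, so the fold is not exact. Of 10 neutrophil markers 9 were measured, all 9 lay below the mean array median and 0 passed. Their mean, relative to all arrays, was -0.06 to 0.00 in WT and 0.00 to 0.17 in DKO at 7 months. At 5 weeks the genotypes overlapped, at -0.09 to -0.02 in WT and -0.06 to 0.05 in DKO. The part of neutrophils in the Cxcl2 result was not tested.

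The other CXC chemokine genes did not pass. Cxcl1, whose promoter holds the same 11 letters as that of Cxcl2, was 3.02 to 3.25 in WT and 3.29 and 3.38 in DKO at 5 weeks, without overlap, a difference of 0.24 (95% interval -0.06 to 0.53). At 7 months the genotypes overlapped (3.10 to 3.38 in WT, 3.05 to 3.64 in DKO), with an interval of -0.14 to 0.34. Cxcl5 was 2.30, 1.97, 1.93 and 2.02 in WT and 2.03 and 2.00 in DKO at 5 weeks, and 1.79, 2.01, 1.89 and 1.87 against 2.01, 1.93, 2.09 and 2.57 at 7 months. The genotypes overlapped at each time, and the 7-month difference of 0.26 ± 0.13 (limma adjusted p = 0.295) was 0.12 without DKO replicate 4.

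Among the inhibitors and feedback regulators, Nfkbiz had the largest difference toward lower values of any member at each time. It was 5.74, 5.90, 6.24 and 6.14 in WT and 5.66 and 5.34 in DKO at 5 weeks. At 7 months it was 6.72, 6.49, 6.16 and 6.22 in WT and 6.17, 5.88, 5.81 and 5.64 in DKO. The groups did not overlap at 5 weeks and met at 6.16 and 6.17 at 7 months. The differences, -0.50 ± 0.19 (SE; limma adjusted p = 0.269) and -0.52 ± 0.15 (adjusted p = 0.0654), did not pass. The 7-month difference passed in 3 of 23 alternatives and did not pass in the other 20. It passed without DKO replicate 1 (-0.62, limma adjusted p = 0.042), with a trended robust prior (adjusted p = 0.0415) and without dim genes (adjusted p = 0.0425). The highest adjusted p was 0.185, without WT replicate 1 at 7 months (-0.41).

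Tnfaip3 encodes A20, a ubiquitin-editing enzyme that ends NF-kappaB signalling. Its signal was 4.42, 4.33, 4.40 and 4.50 in WT and 4.06 and 4.34 in DKO at 5 weeks, and 4.38, 4.53, 4.44 and 4.42 against 4.23, 4.17, 4.02 and 4.43 at 7 months. In each comparison 1 DKO array lay within the WT range and the others below it. The differences were -0.21 ± 0.12 (limma adjusted p = 0.498) and -0.23 ± 0.09 (adjusted p = 0.205). Tnip1, which encodes a partner of A20, was 5.79, 5.80, 5.80 and 5.83 in WT and 5.96 and 6.12 in DKO at 5 weeks. At 7 months it was 5.64, 5.83, 5.82 and 5.88 in WT and 5.85, 5.53, 5.67 and 5.69 in DKO. It was thus above all WT arrays in DKO at 5 weeks (0.24 ± 0.10, adjusted p = 0.365) and overlapped WT at 7 months (-0.11 ± 0.08, adjusted p = 0.547).

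The remaining inhibitors and regulators and the subunits overlapped between genotypes. Nfkbia ranged from 7.07 to 7.87 over all arrays, Nfkbie, encoding IkappaB-epsilon, from 3.46 to 4.41 and Bcl3, a nuclear IkappaB family member, from 4.70 to 5.27. Rela was 7.30, 7.09, 7.44 and 7.18 in WT and 7.12 and 7.22 in DKO at 5 weeks, and 7.11, 7.09, 7.06 and 7.02 against 6.91, 7.01, 7.04 and 6.99 at 7 months. Its genotype differences were -0.08 ± 0.10 and -0.08 ± 0.08. Nfkb2 ranged from 4.12 to 5.03 and Relb from 3.58 to 4.40.

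Among the survival and signalling targets, Tnfaip2, a gene induced by tumour necrosis factor, was 4.8, 4.30, 4.45 and 4.75 in WT and 4.58 and 4.78 in DKO at 5 weeks. At 7 months it was 5.07, 4.79, 4.98 and 4.92 in WT against 4.52, 4.51, 4.76 and 4.77 in DKO, and the highest DKO value was below the lowest WT value. This was the 1 member without overlap in that direction, where 5.25% of all genes were, and the difference of -0.30 ± 0.12 did not pass (limma adjusted p = 0.178). Birc3 ranged from 5.30 to 5.88 and overlapped between genotypes at each time.

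At 5 weeks the shares of members without overlap were close to those of all genes. In DKO, 4 members lay above all WT arrays (Tnip1, Cxcl1, Cxcl2 and Icam1; 12.1% of members, against 11.2% of all genes) and 3 lay below (Nfkbiz, Il1rn and Traf1; 9.09%, against 10.3%). At 7 months 1 member lay above, Cxcl2 (3.03%, against 5.35% of all genes). Of the 33 members 17 (51.5%) differed in the same direction at both times, against 58.1% of all genes. Those past 0.2 log2 units the same way at both times were Nfkbiz and Tnfaip3, lower in DKO, and Cxcl2, Ccl5, Icam1 and Lcn2, higher. These 6 are 18.2% of the members, against 8.45% of all genes. Of them Cxcl2 at 7 months passed the test, and the 7-month difference of Ccl5 was 0.14 without DKO replicate 4.

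**Figure D3:**
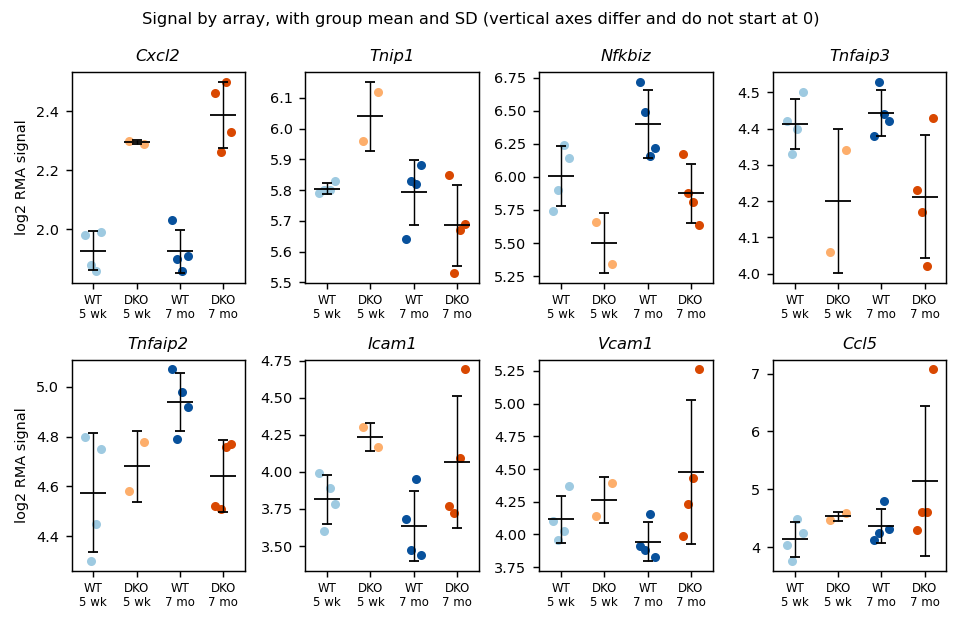
Log2 RMA signal of 8 members in each array (points), with the group mean and SD (horizontal line and bars), in WT and DKO islets at 5 weeks (wk) and 7 months (mo). DKO points of Cxcl2 lie above all WT points at both times, while a DKO array at 7 months stands far above the others in Ccl5 and Vcam1.

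Adhesion molecule genes were higher on average in DKO islets and did not pass. Icam1, a leukocyte ligand on endothelium, was 3.99, 3.60, 3.89 and 3.78 in WT and 4.30 and 4.17 in DKO at 5 weeks, and 3.68, 3.47, 3.95 and 3.44 against 3.77, 3.72, 4.09 and 4.69 at 7 months. Vcam1, the ligand of a lymphocyte integrin, was 4.10, 3.96, 4.03 and 4.37 in WT and 4.14 and 4.39 in DKO at 5 weeks, and 3.91, 3.88, 4.16 and 3.83 against 3.99, 4.23, 4.43 and 5.26 at 7 months. In both genes DKO replicate 4 had the highest value of all 14 arrays. The 7-month differences, 0.43 ± 0.18 for Icam1 (limma adjusted p = 0.213) and 0.53 ± 0.20 for Vcam1 (adjusted p = 0.17), were 0.23 and 0.27 without it.

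Ccl5, a chemokine made by T cells, macrophages and other cells, varied the most. Its values are given in full because of that array, a choice made after they were seen. It was 4.04, 3.76, 4.48 and 4.25 in WT and 4.47 and 4.59 in DKO at 5 weeks, and 4.12, 4.24, 4.79 and 4.32 in WT at 7 months. In DKO at 7 months it was 4.30, 4.60 and 4.61 in replicates 1 to 3 and 7.07 in replicate 4. The difference at 7 months was 0.78 ± 0.44 (limma adjusted p = 0.378) with that array and 0.14 ± 0.17 (adjusted p = 0.776) without it. Traf1, an adaptor of tumour necrosis factor receptors that lymphocytes express, was also highest in DKO replicate 4 at 7 months. At 5 weeks it was 2.56, 2.67, 2.54 and 2.79 in WT and 2.43 and 2.46 in DKO, lower in DKO, where Ccl5 was higher on average. At 7 months it was 2.69, 2.67, 2.73 and 2.60 in WT and 2.87, 2.79, 2.70 and 3.79 in DKO. Its 7-month difference of 0.36 ± 0.18 (adjusted p = 0.295) was 0.11 without replicate 4.

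In that array 8 of the 33 members had their highest value (24.2%, against 12.1% of all genes), and in each other array 0 to 4 had. These were Ccl5, Traf1, Vcam1, Icam1, Cxcl1, Cxcl5, Ccl2 and Birc3. The same array carried lymphocyte markers. The mean of the 12 measured T and NK cell markers of 13, relative to their means over all arrays, was 1.20 there and -0.23 to 0.03 in the other 13, and that of the 10 measured B and plasma cell markers of 11 was 1.23 there and -0.24 to 0.04 elsewhere. Cd3g, a chain of the T cell receptor complex, was 5.19 there and 1.94 to 2.39 in the other arrays. The B cell genes Ms4a1 and Cd79b were 4.40 and 5.39 there, against 1.98 to 2.62 and 2.80 to 3.64. Not every marker stood apart: Cd79a, of B cells, was 2.65 there, within its range of 2.29 to 3.45 elsewhere. Cd3d was 3.32 there, against up to 3.31 elsewhere, and Gzmb was 3.04, against up to 2.95. All genes of the T and NK list and of the B and plasma list had means below the mean array median. Macrophage and monocyte markers were at 0.43 there and -0.18 to 0.18 elsewhere. The array was also the highest in stellate cell, pericyte and fibroblast markers (0.88, against -0.39 to 0.47) and in endothelial markers (0.34, against -0.31 to 0.27). The part of these cell types in the members' values was not tested. Without that array the 7-month differences of the 8 members ran from -0.16 (Birc3) to 0.27 (Vcam1).

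**Figure D4:**
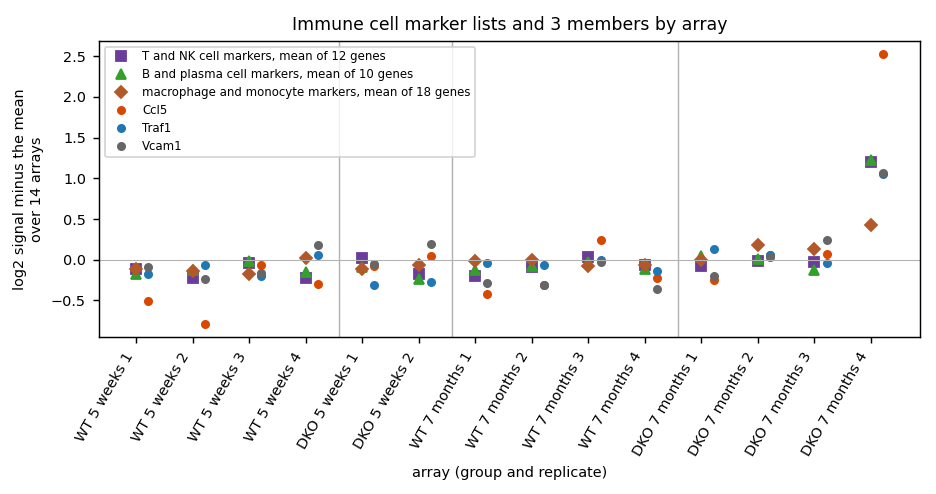
Log2 signal relative to the mean over 14 arrays (vertical axis) for 3 immune cell marker lists, each the mean of its measured genes, and for Ccl5, Traf1 and Vcam1, in each array (horizontal axis). DKO replicate 4 at 7 months is high in the T and NK cell list (1.20), the B and plasma cell list (1.23) and all 3 genes, while in the other arrays the T and NK cell list lies between -0.23 and 0.03.

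The cytokine genes overlapped between genotypes in each comparison, other than Il1rn at 5 weeks. Il1rn was 2.75 to 2.85 in WT and 2.60 and 2.56 in DKO at 5 weeks, a difference of -0.20 ± 0.12 (limma adjusted p = 0.566), and overlapped at 7 months (2.52 to 2.99 against 2.42 to 2.71). Il1b, the main interleukin-1 of macrophages, ranged from 3.55 to 4.75 in WT and 3.8 to 4.17 in DKO at 5 weeks, so that the spread among WT mice exceeded the genotype difference. Its interval was -0.75 to 0.36 at 5 weeks and -0.56 to 0.35 at 7 months. Tnf ranged from 2.35 to 3.02 and Il6 from 1.5 to 2.43 over all arrays. Il1a was 2.90, 2.23, 2.12 and 2.35 in WT and 2.52 and 2.34 in DKO at 5 weeks, and 2.03, 2.01, 2.38 and 2.27 against 1.98, 2.01, 2.15 and 1.74 at 7 months, with genotype differences of 0.03 ± 0.19 and -0.20 ± 0.15.

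The other CC chemokine genes also overlapped between genotypes, at both times. Ccl2 and Ccl7, attractants of monocytes, ranged from 2.40 to 3.15 and from 2.94 to 3.60 over all arrays, and Ccl20, which attracts cells bearing CCR6, from 3.30 to 3.96. Ccl3 spanned 4.24 to 5.26 and Ccl4 spanned 3.30 to 3.93. Ptgs2 ranged from 2.69 to 3.86 and Saa3 from 1.99 to 2.59. Nos2 was 3.81 in DKO replicate 2 at 5 weeks and 2.62 to 3.23 in the other arrays. Lcn2, an iron-sequestering protein gene, was 3.59, 2.91, 2.65 and 1.91 in WT and 3.53 and 3.19 in DKO at 5 weeks, and 2.68, 3.05, 2.65 and 2.76 against 3.16, 2.66, 4.36 and 3.66 at 7 months. Its differences of 0.60 ± 0.41 and 0.67 ± 0.34 (limma adjusted p = 0.634 and 0.306) lay within a spread of up to 2.45 log2 units over the arrays. Of 20 acinar markers measured, 0 passed in either genotype comparison, and their median difference was 1.07 at 5 weeks and 0.96 at 7 months; their part in the dim members' values was not tested.

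**Figure D5:**
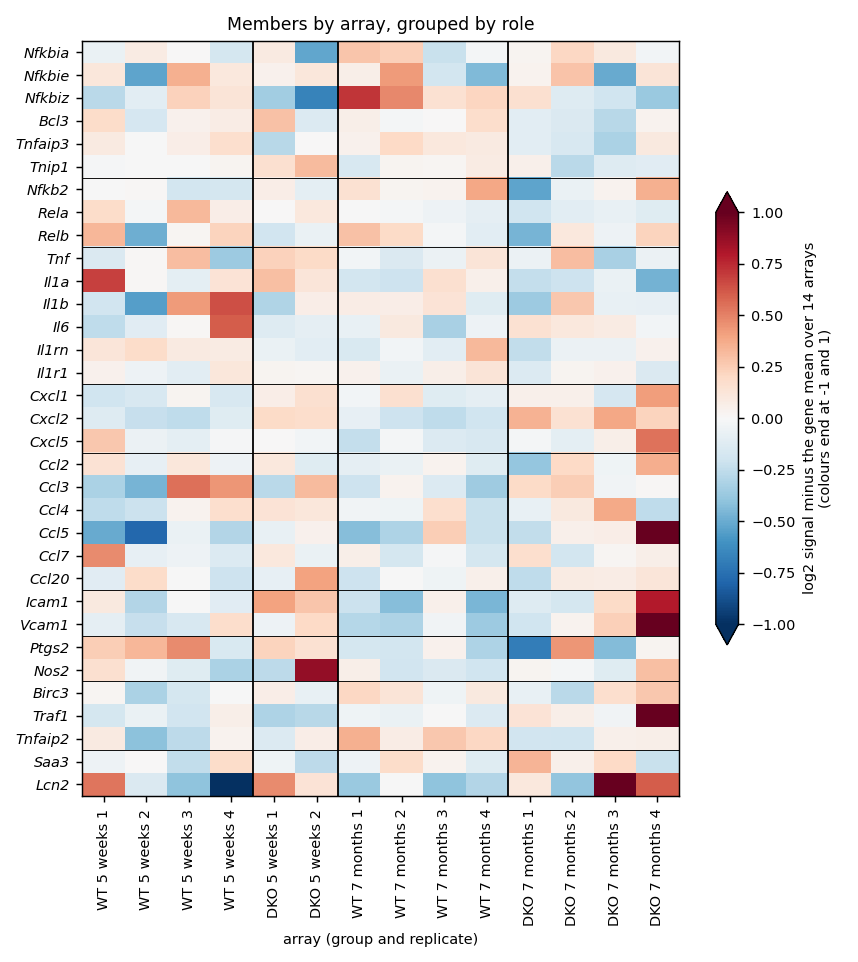
Log2 signal of each member (rows, by role) minus its mean over the 14 arrays (columns, by group and replicate), red above and blue below, with colours ending at 1 log2 unit either way. Dark red cells gather in DKO replicate 4 at 7 months for Ccl5, Icam1, Vcam1 and Traf1, and Cxcl2 is faintly red in all 6 DKO columns.

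Over time, 0 of 33 members passed in WT islets (2.37% of all genes did), and 3 had an unadjusted p under 0.05 (14.6% of all genes): Tnfaip2 (0.37 ± 0.12, limma adjusted p = 0.139), Nfkbiz (0.39 ± 0.15, adjusted p = 0.234) and Rela (-0.18 ± 0.08, adjusted p = 0.319). In DKO islets 1 of 33 passed, Tnip1, where 7.57% of all genes did and 2.7% fell. It was 5.96 and 6.12 at 5 weeks and 5.53 to 5.85 at 7 months, a fall of 0.36 ± 0.10 on the log2 scale (interval -0.58 to -0.14, adjusted p = 0.0489, n = 4 and 2). That call sat at the threshold: it was lost in 18 of 23 alternatives, with adjusted p = 0.247 without DKO replicate 2 at 5 weeks and 0.123 without DKO replicate 1, and 0.0988 with the replicate number as a block. Traf1 (0.59 ± 0.22, adjusted p = 0.119) and Il1a (-0.46 ± 0.19, adjusted p = 0.16) also had an unadjusted p under 0.05 in DKO (21.5% of all genes) and did not pass. Without DKO replicate 4 at 7 months the change of Traf1 was 0.34 ± 0.10 (adjusted p = 0.0632). Between the times, groups without overlap were found for Nfkb2 in WT (higher, against 7.9% of all genes, and 0 members lower, against 3.66%), for Il6 and Traf1 in DKO (higher, against 15.7%) and for Rela, Tnip1 and Il1a in DKO (lower, against 11.1%). The median change of the members was 0.00 in each genotype.

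For the interaction, whether the genotype difference itself changed with time, 0 of 33 members passed, where 0.0903% of all genes did, and 2 had an unadjusted p under 0.05 (10.1% of all genes). These were Tnip1 (-0.35 ± 0.13, limma adjusted p = 0.374) and Tnfaip2 (-0.41 ± 0.19, adjusted p = 0.481). With 2 DKO arrays at 5 weeks this is the least precise comparison, with a median SE over the members of 0.21, against 0.13 for genotype at 7 months.

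The rest of the pathway was read from lists that hold none of the members. Of 21 measured adaptors, kinases and other core components, among them Myd88, Traf6, Ikbkb and Rel, 0 passed between genotypes at either time. Of all genes 0.994% passed at 5 weeks and 4.71% at 7 months, so 0 of 21 does not tell this list from all genes. Irak3, which encodes an inhibitory kinase of receptor signalling, fell by 0.54 ± 0.10 over time in DKO islets (limma adjusted p = 0.00509), where 7.57% of all genes passed. It was the 1 call of that list in the 5 comparisons. The call of Irak3 was lost with only the arrays compared and without DKO replicate 2 at 5 weeks, which leaves 1 array in that group. Of 19 other target genes, 2 rose and 1 fell in DKO at 7 months (15.8%, against 4.71% of all genes). Gadd45b, a stress-response gene, was 5.14 to 6.09 in DKO and 7.16 to 7.98 in WT at 7 months (-1.87 ± 0.23, adjusted p = 0.000282), without overlap. Lbp, the lipopolysaccharide-binding protein gene, rose by 0.86 ± 0.16 (adjusted p = 0.00759) and Cfb, of the complement system, by 0.66 ± 0.18 (adjusted p = 0.0474). The call of Cfb was lost in 14 of 22 alternatives, with 0.48 without DKO replicate 4. Irf1 rose over time in WT (0.37 ± 0.09, adjusted p = 0.0385), a call lost in 14 of 23 alternatives, with an adjusted p of 0.114 without WT replicate 1 at 5 weeks.

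Of 18 other chemokine genes 1 rose and 2 fell in DKO at 7 months (16.7%, against 4.71% of all genes), and 15 did not pass. Cxcl13, the attractant of B cells, was 3.24 to 3.53 in DKO and 4.07 to 4.64 in WT (-0.98 ± 0.15, limma adjusted p = 0.00189). Cx3cl1, the ligand of the macrophage receptor CX3CR1, was 4.74 to 5.43 against 5.61 to 6.20 (-0.98 ± 0.16, adjusted p = 0.00277). Ccl11, an eosinophil attractant, was 5.15 to 6.15 against 4.05 to 4.97 (1.13 ± 0.22, adjusted p = 0.00726). In these 3 genes each DKO array lay apart from each WT array, and the calls held in all 23 alternatives. Of 18 other cytokine genes 1 fell (5.56%, close to the share of all genes), Il18 (-0.66 ± 0.15, adjusted p = 0.0196), a call lost when WT replicate 1 (adjusted p = 0.0633), WT replicate 2 (0.0643) or DKO replicate 3 (0.0573) was left out.

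Of 16 cytokine and chemokine receptor genes 2 rose and 1 fell in DKO at 7 months (18.8%, against 4.71% of all genes). At 5 weeks 0 passed, where 0.994% of all genes did. Cxcr4, the receptor of CXCL12, was 6.51 to 7.12 in DKO and 6.04 to 6.54 in WT (0.72 ± 0.14, limma adjusted p = 0.0096). Il6st, the shared signalling chain gp130 of the interleukin-6 family, fell by 0.56 ± 0.11 (adjusted p = 0.00722). Tnfrsf1a, a receptor of tumour necrosis factor, rose by 0.35 ± 0.08 (adjusted p = 0.0201), a call lost in 4 of 23 alternatives. Among these were the omission of WT replicate 1 (adjusted p = 0.0639), WT replicate 2 (0.0691) or DKO replicate 1 (0.0583). Over time in DKO islets, where 7.57% of all genes passed, 2 receptors of 16 rose and 1 fell. There 2 of 18 other chemokines rose and 2 fell, and 1 of 19 other targets fell. In WT islets, where 2.37% of all genes passed, 1 receptor, Cxcr4, and 1 other target rose, the former lost in 16 of 23 alternatives. Of the 12 calls over time in DKO among these lists and the immediate early genes, 3 remained with only the arrays compared (Cxcl13, Cxcr4 and Zfp36). With the replicate block 9 remained. Calls were also lost when either DKO array at 5 weeks was left out, which leaves 1 array in that group.

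Cell type markers moved beside these genes at 7 months. Of 15 stellate cell, pericyte and fibroblast markers 10 rose in DKO (66.7%, against 4.71% of all genes that passed). Of 18 macrophage and monocyte markers 4 rose (22.2%), and of 16 endothelial markers 2 rose and 1 fell (18.8%). These counts include DKO replicate 4, the highest array in each of these lists, and are not given without it. In DKO replicates 1 to 3 the mean of the stellate list, relative to all arrays, was 0.23, 0.24 and 0.47, against -0.39 to -0.21 in WT. That of the macrophage list was 0.00, 0.18 and 0.13, against -0.08 to 0.00. That of the endothelial list was 0.14, 0.27 and 0.16, against 0.03 to 0.10. Of 9 alpha, delta and PP cell markers 8 fell (88.9%). For neutrophil, T and NK cell, B and plasma cell, acinar and beta cell markers 0 passed in any of the 5 comparisons. Of 7 duct markers 1 fell in DKO at 7 months (14.3%). Immediate early genes, which respond to handling of tissue, had 0 of 20 past the threshold between genotypes at either time. Of all genes 0.994% passed at 5 weeks and 4.71% at 7 months. The median differences of these 20 genes were -0.15 at 5 weeks and 0.26 at 7 months. Over time in DKO 3 of the 20 rose (Zfp36, Dusp1 and Btg2), where 7.57% of all genes passed. The part of these cell types and of handling in the values of the members was not tested.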

How the data were processed

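RNA of islets from 14 mice (100 ng per sample, biotin labelled) was measured on a whole-transcript array. The authors deposited log2 signals from RMA, per the submitters' processing notes; its version is not stated there. Of 35556 probe sets, 21218 carried 1 gene symbol, and the brightest per gene gave 18820 genes, 18790 named through their Entrez identifier. The deposited log2 values were used without further normalization. A mean per group was fitted over all 14 arrays with limma 3.58.1 (lmFit, eBayes) in R 4.3.3, with Benjamini-Hochberg adjustment over all genes and a threshold of 0.05. The p-values measure the spread between these samples. Intervals are 95% from the moderated fit, not adjusted for multiple tests. The method was tested on simulated data. Promoters came from RefSeq. Figures used Python 3.11.15 and matplotlib 3.10.9.

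The members and gene lists were chosen with earlier results of these data known. Values in every array are given for the members past the threshold and then those of smallest p, up to 12, and for Ccl5, chosen, like the remarks on Il1r1 and Nfkbia, after the values were seen. Genes of other lists are named where past the threshold, up to 4 per list and comparison. Other settings tried were a fit on the arrays of each comparison alone, another prior (trended, robust), removal of dim genes, averaged probe sets, a second quantile normalization, centred arrays, the replicate number or the number 5 or 7 in the descriptions as a factor, array weights, and omission of single arrays.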

Additional observations from a re-analysis of the deposited data

Results flagged for a closer look

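In 5 of 99 member and group pairs (5.05%) the highest or lowest of 4 arrays stood apart from the other 3 by Dixon's criterion, and chance alone gives about 1 in 20. Ccl5 was 7.07 in DKO replicate 4 at 7 months, against 4.30 to 4.61 in the other arrays of its group. Traf1 was 3.79 in the same array, against 2.70 to 2.87. Ccl20 was 3.30 in DKO replicate 1 at 7 months, below 3.63 to 3.68. Ccl7 was 3.60 in WT replicate 1 at 5 weeks, above 2.99 to 3.07. Cxcl1 was 3.25 in WT replicate 3 at 5 weeks, above 3.02 to 3.06.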

How the results depend on the processing

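The member counts of 0 at 5 weeks, over time in WT and for the interaction were 0 in every alternative run. The 7-month count of 1 was 1 to 2 with an array left out and 2 with a trended robust prior (Cxcl2 and Nfkbiz), and without dim genes, where 16 members were tested, the call was Nfkbiz. The count of 1 over time in DKO (Tnip1) was 0 to 1 with an array left out, where without DKO replicate 1 at 5 weeks the call was Nos2 (-0.84, limma adjusted p = 0.0341, against -0.27 with all arrays) in place of Tnip1, and 0 with only the arrays compared, a trended robust prior, centred arrays, the description number, array weights or the replicate block; the cause was not tested. The 16 members above the array median became 7 against the median of the genes tested, which is higher. Differences near 0 changed sign: Il1a at 5 weeks (0.03) was -0.02 with array weights and -0.06 to 0.20 with an array left out, and in that setting Cxcl5 at 5 weeks was -0.08 to 0.04, Il1r1 at 5 weeks -0.02 to 0.06, Nfkbia -0.47 to 0.14 at 5 weeks and -0.09 to 0.08 at 7 months. Over all genes, the counts of 187, 887, 446, 1424 and 17 ranged over the alternatives from 44 to 282 (genotype, 5 weeks), 488 to 1681 (7 months), 221 to 786 (time in WT), 347 to 2051 (time in DKO) and 2 to 185 (interaction). Of 18 same-numbered pairs of arrays across groups 1 correlated above 0.1 and 5 of 14 arrays correlated best with their own number. No pairing by number was seen, but weak correlations cannot exclude one. With the replicate block 121, 817, 352, 864 and 10 genes passed. The number of arrays and signals near background limit what could be seen.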
